A study of Mus musculus with 16 samples.

Results

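Interferon-stimulated genes were followed in bulk RNA sequencing of T-ALL (T cell acute lymphoblastic leukaemia, a cancer of immature T cells) from 16 mice, 1 library each. The set is a list of 47 mouse gene symbols. Of these, 46 matched an identifier in the deposited count tables, out of 41214 genes there. The unmatched symbol, Gbp6, is named only. All 46 passed the filter on low counts, which left 17470 genes to test. They fall into 37 genes known mainly as targets of type I interferon (6 regulators, 10 sensors and members of the OAS family, 21 effectors) and 9 interferon-inducible GTPases (4 of the IRG family, 5 guanylate-binding proteins or GBPs).

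The mice, all on the C57Bl6 strain, formed 8 groups of 2. In 6 groups the leukaemia was induced with ICN, an activated form of Notch1. Of these, 3 were p53 wt and 3 were p53 ko, and each trio held a Miz1 wt group, a Miz1 deltaPOZ group with the suffix Lck in its titles and a Miz1 deltaPOZ group with the suffix Vav. The other 2 groups were p53 ko leukaemias that arose without ICN, with Miz1 wt or with Miz1 deltaPOZ and the Vav suffix. Miz1 is a zinc finger transcription factor, and deltaPOZ is a form without its POZ domain. The labels do not explain the suffixes, and no group without ICN had wild-type p53 or the Lck suffix, so ICN could be compared only within p53 ko leukaemias. The sources used here give neither organ nor sex nor age. Each library is labelled as its own mouse, and the spread in each test is that between mice.

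Interferons are secreted alarm proteins. Type I interferons (alpha and beta) bind the receptor pair Ifnar1 and Ifnar2, and the kinases Jak1 and Tyk2 then activate a complex with Stat2 and Irf9 that binds the interferon-stimulated response element (ISRE) in promoters. Interferon gamma, made mainly by T cells and natural killer (NK) cells, signals through Ifngr1, Ifngr2, Jak1 and Jak2 to the gamma-activated site (GAS) in promoters. The type I genes encode antiviral enzymes, nucleic acid sensors and the regulators of the pathway itself. The IRG and GBP GTPases, which attack the vacuoles of intracellular microbes, are known as strong targets of interferon gamma, although both classes respond to both kinds of interferon.

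The libraries held 36463524 to 68523196 gene counts. The 11 T cell markers examined, among them Cd3e and Ptcra, averaged 7.36 to 8.65 on the log2 CPM scale in all 16 libraries, where CPM is the count scaled to the normalised size of its library. Several libraries stood apart in the interferon-stimulated genes. Replicate 1 of the noICN Miz1-wt p53-ko group was the lowest of 16 for 31 of the 46 genes. Replicate 1 of ICN deltaPOZ-Lck p53-ko was the highest for 16 genes and replicate 2 of ICN Miz1-wt p53-ko for 13.

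Promoter windows from RefSeq on GRCm38.p6, reaching from 250 bases before a transcription start to 50 bases after it, were found for 32 of the members. They are shown for 7 genes on which the results turn: the type I genes Rsad2, Oas3 and Isg15 and the GTPases Gbp2 and Igtp, which were higher with ICN, and Bst2 and Irf1, which were not called. Capitals mark the letters GAAANNGAAA (the core of an ISRE) or TTCNNNGAA (a GAS), searched on both strands.
Rsad2 promoter (chr12:26456403-26456702, reverse strand): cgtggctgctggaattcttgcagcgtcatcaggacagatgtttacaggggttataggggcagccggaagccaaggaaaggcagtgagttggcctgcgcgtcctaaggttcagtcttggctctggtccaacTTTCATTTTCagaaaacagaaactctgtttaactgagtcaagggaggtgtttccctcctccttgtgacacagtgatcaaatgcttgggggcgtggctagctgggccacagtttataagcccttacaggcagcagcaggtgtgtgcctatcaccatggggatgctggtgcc
Oas3 promoter (chr5:120777610-120777909, reverse strand): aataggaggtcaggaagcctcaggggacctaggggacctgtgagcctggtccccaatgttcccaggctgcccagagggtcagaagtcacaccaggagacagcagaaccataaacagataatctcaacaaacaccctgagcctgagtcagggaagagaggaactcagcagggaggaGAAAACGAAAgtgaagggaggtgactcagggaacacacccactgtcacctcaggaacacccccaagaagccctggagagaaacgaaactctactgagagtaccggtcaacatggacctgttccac
Isg15 promoter (chr4:156200769-156201068, reverse strand): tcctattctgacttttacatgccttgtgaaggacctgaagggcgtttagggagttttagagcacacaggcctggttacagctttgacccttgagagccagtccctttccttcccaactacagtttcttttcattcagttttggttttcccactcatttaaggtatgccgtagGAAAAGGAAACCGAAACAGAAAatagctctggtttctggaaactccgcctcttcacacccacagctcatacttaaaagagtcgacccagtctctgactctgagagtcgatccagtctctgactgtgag
Gbp2 promoter (chr3:142620413-142620712, forward strand): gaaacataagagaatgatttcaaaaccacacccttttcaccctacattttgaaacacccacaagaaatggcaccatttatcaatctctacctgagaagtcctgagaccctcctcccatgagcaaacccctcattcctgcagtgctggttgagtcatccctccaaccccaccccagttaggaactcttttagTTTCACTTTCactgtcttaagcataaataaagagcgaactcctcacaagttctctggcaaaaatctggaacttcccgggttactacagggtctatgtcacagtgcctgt
Igtp promoter (chr11:58199306-58199605, forward strand): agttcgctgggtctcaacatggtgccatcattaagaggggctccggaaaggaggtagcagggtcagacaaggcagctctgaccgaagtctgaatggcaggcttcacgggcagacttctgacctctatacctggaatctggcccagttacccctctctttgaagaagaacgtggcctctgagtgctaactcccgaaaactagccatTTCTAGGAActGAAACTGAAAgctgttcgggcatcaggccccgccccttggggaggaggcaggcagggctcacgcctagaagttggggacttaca
Bst2 promoter (chr8:71537423-71537722, reverse strand): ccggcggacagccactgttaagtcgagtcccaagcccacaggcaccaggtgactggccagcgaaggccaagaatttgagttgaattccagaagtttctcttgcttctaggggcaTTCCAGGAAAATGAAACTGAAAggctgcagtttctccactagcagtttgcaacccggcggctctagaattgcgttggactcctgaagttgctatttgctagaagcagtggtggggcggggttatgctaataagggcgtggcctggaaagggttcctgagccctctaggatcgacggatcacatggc
Irf1 promoter (chr11:53769764-53770063, forward strand): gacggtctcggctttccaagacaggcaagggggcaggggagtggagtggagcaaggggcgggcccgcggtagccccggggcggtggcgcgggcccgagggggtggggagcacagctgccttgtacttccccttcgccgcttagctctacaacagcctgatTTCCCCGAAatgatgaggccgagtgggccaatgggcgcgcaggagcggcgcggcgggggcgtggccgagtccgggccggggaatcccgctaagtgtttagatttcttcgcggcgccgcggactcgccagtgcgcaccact

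The ISRE letters began 120 bases before the start in Rsad2, 75 in Oas3 and 59 in Gbp2. In the Isg15 window 3 matches overlapped each other, the first 78 bases before the start. Igtp held GAS letters 45 and ISRE letters 34 bases before the start, and in Bst2 the GAS and ISRE letters overlapped. The Irf1 window shown held GAS letters alone, 90 bases before the start, and another Irf1 window held neither kind. For the 6 members with more than 1 window, a match in any window was counted, as for all genes. Of the 32 members with a window, 19 (59.4%) held the ISRE letters, against 3.99% of all 27025 genes with a window. GAS letters were present in 10 members (31.2%), against 9.55% of all genes. All 6 GTPases with a window held ISRE letters and 3 of them GAS letters. A match describes these letters only and is no evidence of binding.

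Across all 8 groups, 12 of the 46 genes differed between groups in a joint edgeR quasi-likelihood test (adjusted p under 0.05), while 14.6% of all tested genes did. The 12 were Iigp1, Igtp and Gbp2 among the GTPases and Oas3, Ifitm3, Rsad2, Ifi35, Dtx3l, Parp14, Cmpk2, Irf9 and Parp9 among the type I genes. Without replicate 2 of noICN Miz1-wt p53-ko the joint count was 25 (12.1% of all genes), and without replicate 1 or 2 of noICN deltaPOZ-Vav p53-ko it was 8 (15.1% and 12.4%). It was 28 with DESeq2 (31.8% of all genes) and 35 with no filter on low counts (20.8%). The map of all genes by library shows the widest contrast between the 12 libraries with ICN and the 4 without.

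**Figure D1:**
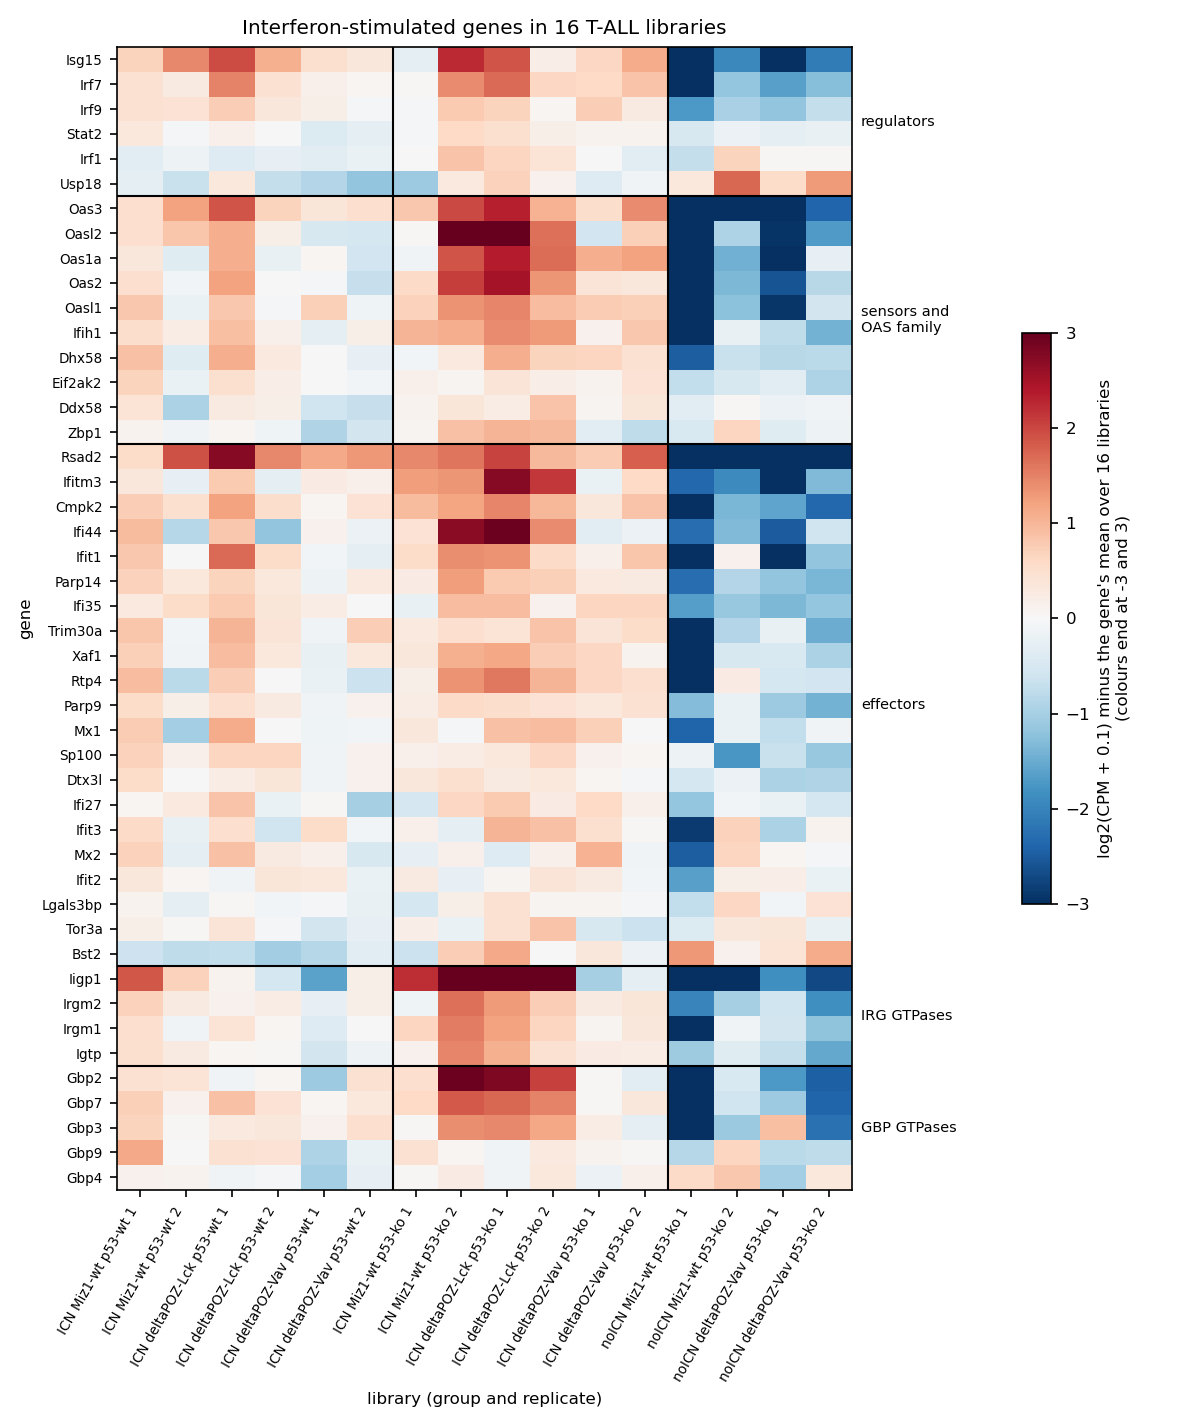
Levels of 46 interferon-stimulated genes (rows, by role) in 16 libraries (columns, by group and replicate), as log2(CPM + 0.1) minus the mean of each gene over the libraries. Blue (low) fills most rows of the 4 libraries without ICN at the right, and replicate 1 of noICN Miz1-wt p53-ko is the lowest library for 31 of the 46 genes.

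Both classes were lower without ICN. The 37 type I genes averaged 4.17 to 5.46 log2 CPM in the 12 ICN libraries, and 1.93, 3.70, 3.03 and 3.47 in the 4 libraries without it. The 9 GTPases averaged 4.50 to 6.80 with ICN, and 2.62, 4.52, 4.30 and 3.47 without. The type I ranges did not overlap, and the GTPase ranges met at 1 library on each side. In bulk RNA, fewer cells of a type that makes a transcript and less of that transcript in each cell cannot be told apart.

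**Figure D2:**
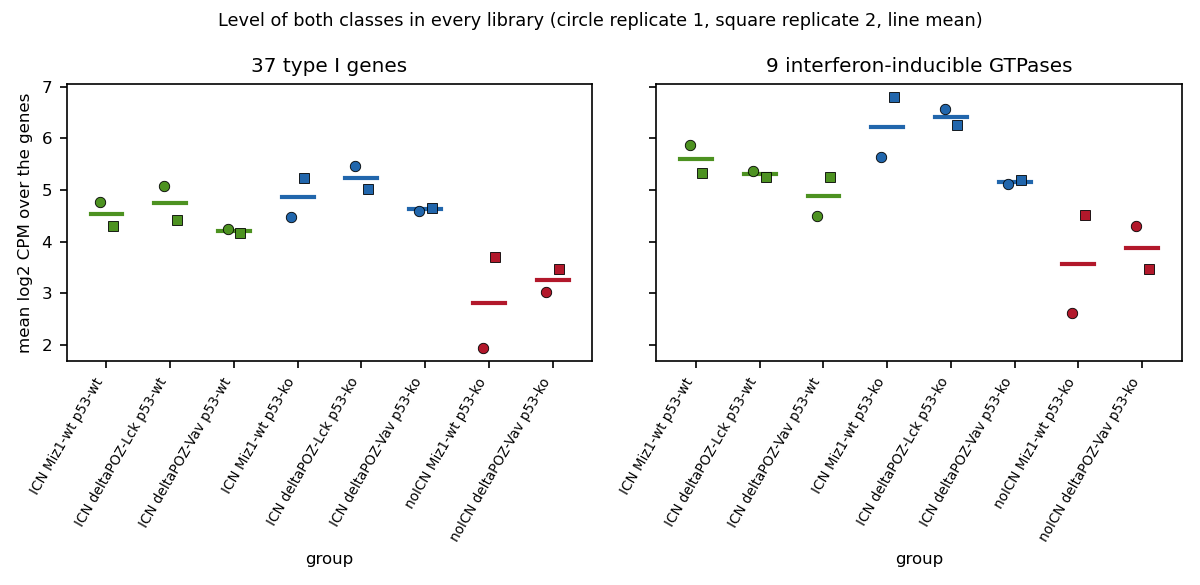
Mean log2 CPM of the 37 type I genes (left) and the 9 interferon-inducible GTPases (right) in each library, by group; green is ICN p53 wt, blue ICN p53 ko and red p53 ko without ICN, circles are replicate 1, squares replicate 2 and lines group means. All 4 red type I points lie at 3.70 or below and all 12 others at 4.17 or above, and the highest GTPase value, 6.80, is replicate 2 of ICN Miz1-wt p53-ko.

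Leukaemias with ICN were compared with those without among the p53 ko mice, using the Miz1 wt and deltaPOZ-Vav groups on both sides (4 against 4 mice). Values with ICN are given in that order, the Miz1 wt pair first. Of the 46 genes, 27 were higher with ICN and 1, Usp18, was lower. Of all genes tested, 12.9% were called higher and 11.1% lower, 24% in all. The median log2 fold change was 1.41 for type I genes and 1.58 for GTPases, against -0.02 for all genes, and 41 of 46 were above 0 (49.1% of all genes). Rsad2 and Oas3, both antiviral enzymes, had the largest changes among type I genes, and Iigp1 among the GTPases. In 32 genes the 4 ICN libraries all lay above the 4 without (12.1% of all genes), and in 1 gene all below (9.56%). In 22 of the 46 genes every one of the 12 ICN libraries, Lck and p53 wt included, lay above all 4 libraries without ICN, as did 8.25% of all genes. No member had all 12 below (5.74%).

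**Figure D3:**
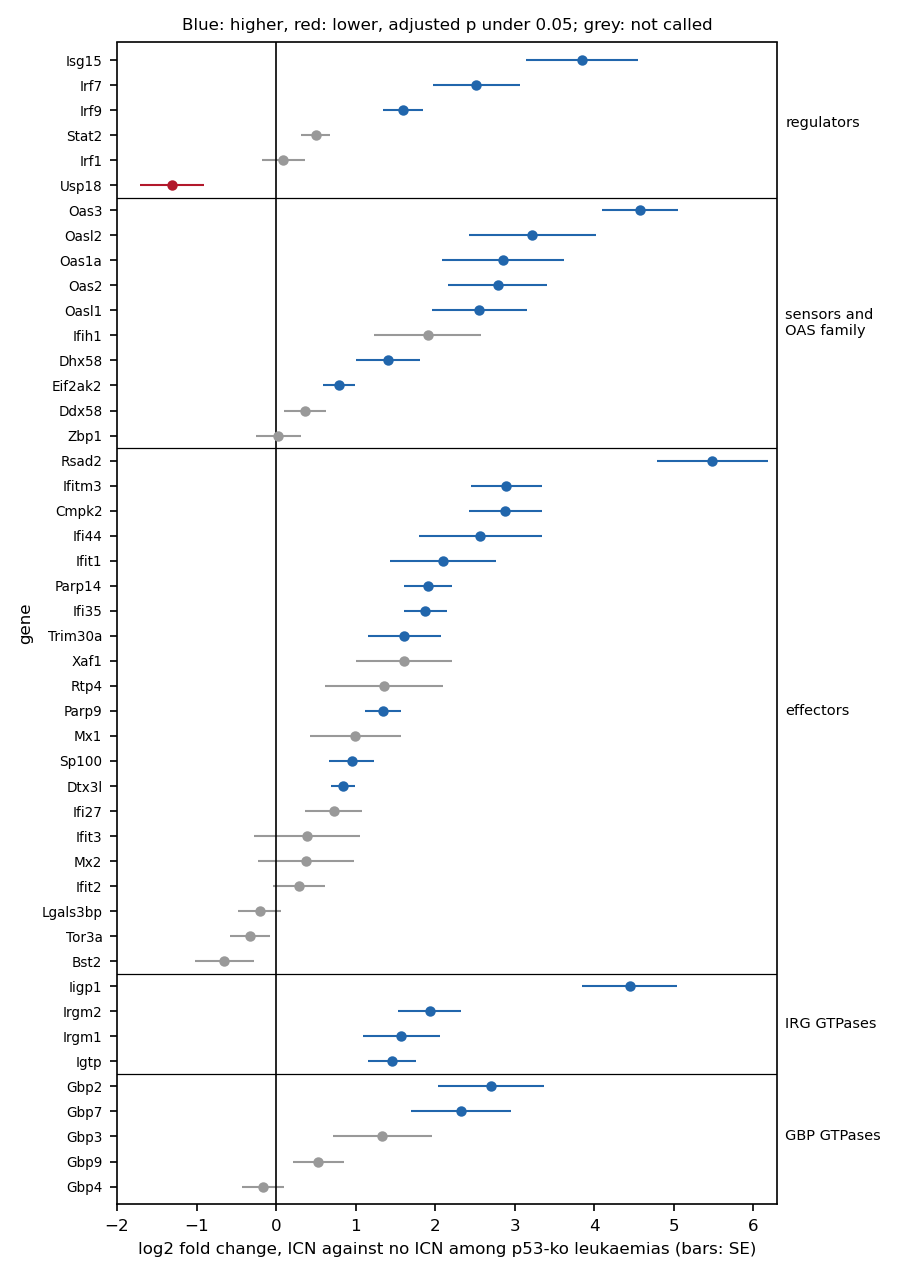
Log2 fold change between ICN and no ICN among p53 ko leukaemias (x axis, bars are standard errors) for 46 genes (y axis, by role); 4 against 4 mice, edgeR. Of the 46 points, 27 are blue (higher, adjusted p under 0.05), 1 is red (Usp18, lower) and 18 are grey (not called).

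Among the regulators, 3 of 6 were higher with ICN and 1 was lower. Isg15 (ENSMUSG00000035692, chromosome 4, 156199424 to 156200818) encodes a ubiquitin-like protein that is attached to other proteins during the interferon response. Isg15 lay at 0.876 and 5.86 CPM (Miz1 wt) and 2.47 and 5.23 CPM (deltaPOZ-Vav) without ICN and at 18.7 and 109 CPM and 35.3 and 49.6 CPM in the ICN counterparts, a 14.3-fold difference (log2 3.84, SE 0.70, adjusted p = 0.00312). The 4 libraries without ICN were all below the lowest with ICN, and the Lck p53 ko libraries (83.8 and 26.3 CPM) and the 6 p53 wt libraries (28.9 to 88.3 CPM, median 42) also lay above them. Irf7, the transcription factor that amplifies type I interferon production, lay at 1.58 and 12.1 CPM (Miz1 wt) and 8.72 and 11.2 CPM (deltaPOZ-Vav) without ICN. With ICN it lay at 27.6 and 72.5 CPM and 41.1 and 48.8 CPM (log2 2.52, SE 0.55, adjusted p = 0.00767), at 88.2 and 41.5 CPM with Lck and at 28.4 to 76.4 CPM (median 34.9) in p53 wt leukaemias, so its groups did not overlap either. Irf9, the DNA-binding partner of Stat2, rose from 20.3 and 34.4 CPM (Miz1 wt) and 29.6 and 41 CPM (deltaPOZ-Vav) to 65.8 and 117 CPM and 112 and 81.4 CPM (log2 1.59, SE 0.25, adjusted p = 0.00152). Its Lck p53 ko libraries held 107 and 70.1 CPM and its p53 wt libraries 64.4 to 113 CPM (median 88.1).

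Usp18 (ENSMUSG00000030107, chromosome 6, 121245906 to 121270917), the enzyme that removes Isg15 from proteins and dampens the type I receptor, was the single member called lower. Usp18 lay at 18.4 and 49.1 CPM (Miz1 wt) and 21.8 and 35.8 CPM (deltaPOZ-Vav) without ICN and at 6.91 and 18.3 CPM and 11.3 and 13.8 CPM with ICN (log2 -1.31, SE 0.40, adjusted p = 0.0356). The lowest library without ICN and the highest of the ICN counterparts were nearly level, and the Lck p53 ko libraries (23.8 and 16.1 CPM) overlapped the range without ICN. The call was lost in 5 of 16 fits that each left out 1 library, most clearly without replicate 2 of noICN Miz1-wt p53-ko (adjusted p = 0.125). The ICN p53 wt libraries held 6.48 to 18.5 CPM (median 9.12). Stat2, the partner of Irf9, held 20.8 and 25.8 CPM (Miz1 wt) and 24.1 and 24.9 CPM (deltaPOZ-Vav) without ICN and 28.2 and 44.5 CPM and 31.4 and 31.3 CPM with it and was not called (log2 0.50, SE 0.18, adjusted p = 0.0686). Irf1, a transcription factor known as a direct target of interferon gamma signalling, was not called (log2 0.09, SE 0.27, adjusted p = 0.838) and ranged from 76.3 to 199.5 CPM without ICN.

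Of the 10 sensors and OAS genes, 7 were higher with ICN. The OAS enzymes make oligoadenylates, which activate the ribonuclease RNase L. Oas3 (ENSMUSG00000032661, chromosome 5, 120753098 to 120777661) lay at 1.73 and 2.18 CPM (Miz1 wt) and 2.34 and 5.04 CPM (deltaPOZ-Vav) without ICN and at 46.2 and 105 CPM and 38.2 and 71.1 CPM with ICN, a 23.8-fold difference (log2 4.58, SE 0.47, adjusted p = 0.000111). The Lck p53 ko libraries held 135 and 55 CPM and the p53 wt libraries 34.2 to 98.2 CPM (median 40.2). All ICN libraries were at least 34.2 CPM and all others at most 5.04 CPM. Oas2 rose from 0.275 and 1.38 CPM (Miz1 wt) and 0.527 and 2.0 CPM (deltaPOZ-Vav) to 5.51 and 15.8 CPM and 4.82 and 4.66 CPM (log2 2.78, SE 0.63, adjusted p = 0.00911). It held 21.2 and 9.33 CPM in Lck p53 ko and 2.22 to 8.54 CPM (median 3.61) in p53 wt libraries, and was also free of overlap. Oas1a lay at 0.35 and 1.39 CPM (Miz1 wt) and 0.229 and 3.35 CPM (deltaPOZ-Vav) without ICN and at 3.66 and 15 CPM and 8.58 and 9.29 CPM with it (log2 2.86, SE 0.77, adjusted p = 0.0209). Here 1 library without ICN, at 3.35 CPM, exceeded some p53 wt libraries (2.63 to 8.54 CPM, median 3.78), and Lck p53 ko libraries held 20.8 and 12.9 CPM.

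Both OAS-like genes were called higher. Oasl1, known to restrain Irf7, rose from 0.576 and 2.58 CPM (Miz1 wt) and 0.733 and 4.17 CPM (deltaPOZ-Vav) to 10.04 and 15.9 CPM and 10.6 and 10.3 CPM (log2 2.55, SE 0.60, adjusted p = 0.0108), with 17.3 and 11.7 CPM in Lck p53 ko and 5.31 to 10.9 CPM (median 8.05) in p53 wt libraries. Oasl2 rose from 0.576 and 6.31 CPM (Miz1 wt) and 1.49 and 3.63 CPM (deltaPOZ-Vav) to 12.3 and 99.5 CPM and 8.0 and 19.8 CPM (log2 3.22, SE 0.80, adjusted p = 0.0146), with 119 and 38.1 CPM in Lck p53 ko and 8.31 to 25.7 CPM (median 15.3) in p53 wt libraries. The 3 highest Oasl2 values of the 16 libraries were 118.8, 99.5 and 38.1 CPM, all in ICN p53 ko. Eif2ak2, the kinase PKR that stops translation when it meets double-stranded RNA, rose modestly, from 32.3 and 38.8 CPM (Miz1 wt) and 43.2 and 28.5 CPM (deltaPOZ-Vav) to 59.6 and 57.3 CPM and 57.9 and 72.7 CPM (log2 0.79, SE 0.21, adjusted p = 0.0182). It held 70.7 and 62.1 CPM with Lck and 47.1 to 85.4 CPM (median 58.6) in p53 wt libraries. Dhx58, the RIG-I-like protein LGP2, rose from 1.93 and 7.03 CPM (Miz1 wt) and 6.27 and 6.35 CPM (deltaPOZ-Vav) to 10.5 and 13.8 CPM and 17.7 and 15.3 CPM (log2 1.41, SE 0.40, adjusted p = 0.0263). Its Lck p53 ko libraries held 24.1 and 18 CPM and its p53 wt libraries 8.65 to 23.9 CPM (median 12.5).

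The sensors that start the response were not called. Ddx58, which encodes RIG-I, held 43.1 and 55.1 CPM (Miz1 wt) and 48 and 50.2 CPM (deltaPOZ-Vav) without ICN and 58.1 and 69 CPM and 56.8 and 69.2 CPM with it (log2 0.37, SE 0.26, adjusted p = 0.337). Ifih1, which encodes MDA5, held 0.701 and 23.1 CPM (Miz1 wt) and 15.9 and 10.1 CPM (deltaPOZ-Vav) without ICN and 55 and 57.8 CPM and 29.6 and 47.5 CPM with it, a difference of 1.90 (SE 0.68, adjusted p = 0.062) on the log2 scale that missed the threshold. Zbp1, a sensor of Z-form nucleic acids, held 8.63 and 18.8 CPM (Miz1 wt) and 9.34 and 10.7 CPM (deltaPOZ-Vav) without ICN and 12.6 and 22 CPM and 9.64 and 6.95 CPM with it (log2 0.03, SE 0.28, adjusted p = 0.959).

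Effectors were higher in 11 of 21 cases. Rsad2 (ENSMUSG00000020641, chromosome 12, 26442746 to 26456452), whose product viperin makes a chain-terminating nucleotide, showed the largest change of the list. Rsad2 lay at 1.5 and 15.8 CPM (Miz1 wt) and 6.98 and 8.23 CPM (deltaPOZ-Vav) without ICN and at 363 and 408 CPM and 227 and 465 CPM in the ICN counterparts, 44.8-fold higher (log2 5.49, SE 0.70, adjusted p = 0.000434). Lck p53 ko libraries held 539 and 262 CPM and p53 wt libraries 194 to 880.2 CPM (median 343), so the lowest ICN library (194.1 CPM) was far above the highest without ICN (15.8 CPM). Cmpk2, a mitochondrial nucleotide kinase encoded beside Rsad2, rose from 2.18 and 13.3 CPM (Miz1 wt) and 11.5 and 6.72 CPM (deltaPOZ-Vav) to 66.5 and 78.1 CPM and 43.6 and 62.7 CPM (log2 2.88, SE 0.46, adjusted p = 0.00153). It held 96 and 69.6 CPM in Lck p53 ko and 36.3 to 80.2 CPM (median 49.1) in p53 wt libraries, again without overlap. Ifitm3, a membrane protein that blocks virus entry, rose from 1.25 and 1.75 CPM (Miz1 wt) and 0.641 and 2.66 CPM (deltaPOZ-Vav) to 16.4 and 17.3 CPM and 5.89 and 10.5 CPM (log2 2.89, SE 0.45, adjusted p = 0.00132). Its 2 highest libraries were the Lck p53 ko pair (45.6 and 30.1 CPM), and p53 wt libraries held 5.55 to 11.8 CPM (median 7.88).

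Ifi35, an interferon-induced leucine zipper protein, rose from 9.23 and 13.1 CPM (Miz1 wt) and 11.3 and 13 CPM (deltaPOZ-Vav) to 24.9 and 55.4 CPM and 45.7 and 45.9 CPM (log2 1.88, SE 0.27, adjusted p = 0.000945), with 55.1 and 32 CPM in Lck p53 ko and 29.6 to 50.1 CPM (median 36.6) in p53 wt libraries. Its exons overlap Gm11626 on the opposite strand over 16.8% of their length. Parp14, an ADP-ribosyltransferase, rose from 19.3 and 51.5 CPM (Miz1 wt) and 41.5 and 36.3 CPM (deltaPOZ-Vav) to 112 and 225 CPM and 115 and 114 CPM (log2 1.91, SE 0.30, adjusted p = 0.00153), with 162 and 155 CPM in Lck p53 ko and 83.9 to 151 CPM (median 117) in p53 wt libraries. Parp9 and Dtx3l, which form a complex that modifies histones, are neighbours on chromosome 16 with exons that overlap on opposite strands. The strand setting of the counts is not given, so how reads from the shared stretch were counted is not known. Parp9 rose from 36.9 and 79.9 CPM (Miz1 wt) and 42.9 and 34.4 CPM (deltaPOZ-Vav) to 106 and 136 CPM and 114 and 126 CPM (log2 1.34, SE 0.22, adjusted p = 0.0019). Dtx3l rose from 76 and 96.1 CPM (Miz1 wt) and 56.8 and 58.7 CPM (deltaPOZ-Vav) to 139 and 153 CPM and 114 and 106 CPM (log2 0.84, SE 0.15, adjusted p = 0.00254), the smallest standard error on the list. In Lck p53 ko libraries Parp9 held 132 and 124 CPM and Dtx3l 131 and 136 CPM, and in p53 wt libraries they held 85.8 to 134 CPM (median 107) and 101 to 159.8 CPM (median 124).

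A further 4 effectors were called closer to the threshold. Trim30a, a ubiquitin ligase, rose from 4.28 and 21.7 CPM (Miz1 wt) and 34.5 and 14.1 CPM (deltaPOZ-Vav) to 49.5 and 57.1 CPM and 52.1 and 59.2 CPM (log2 1.61, SE 0.46, adjusted p = 0.0274). Sp100, a nuclear body protein, rose from 74.4 and 24.9 CPM (Miz1 wt) and 52.8 and 37.9 CPM (deltaPOZ-Vav) to 92.4 and 96.8 CPM and 90.4 and 87.4 CPM (log2 0.95, SE 0.28, adjusted p = 0.0307). In both genes 1 library without ICN lay close to the ICN range: 34.5 CPM for Trim30a and 74.4 CPM for Sp100. Ifi44 lay at 0.20 and 0.488 CPM (Miz1 wt) and 0.16 and 0.868 CPM (deltaPOZ-Vav) without ICN and 1.87 and 9.47 CPM and 1.07 and 1.19 CPM with ICN (log2 2.57, SE 0.78, adjusted p = 0.034), and its highest libraries were ICN Miz1-wt p53-ko replicate 2 and the Lck p53 ko pair (11.2 and 3.82 CPM). The call was lost in 7 of 16 fits that left out 1 library for Sp100 (highest adjusted p = 0.0994), in 6 for Ifi44 (0.132) and in 5 for Trim30a (0.0940). Ifit1, which binds foreign RNA caps, rose from 1.03 and 13.4 CPM (Miz1 wt) and 1.42 and 5.3 CPM (deltaPOZ-Vav) to 18.1 and 32.1 CPM and 13.6 and 21.9 CPM (log2 2.10, SE 0.67, adjusted p = 0.0422). The Ifit1 call was lost in 14 of 16 fits that left out 1 library (highest adjusted p = 0.113). In p53 wt libraries Trim30a held 37.2 to 81 CPM (median 59.8), Sp100 77.8 to 135 CPM (median 112), Ifi44 0.542 to 2.72 CPM (median 1.34) and Ifit1 10.2 to 39.95 CPM (median 15). In Lck p53 ko libraries Trim30a held 53.7 and 73.1 CPM, Sp100 104 and 129 CPM and Ifit1 31.3 and 18.2 CPM.

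The other 10 effectors were not called. Mx1, an antiviral GTPase that is defective in most laboratory strains, was scarce everywhere, with 0.225 and 1.41 CPM (Miz1 wt) and 0.939 and 1.49 CPM (deltaPOZ-Vav) without ICN and 2.1 and 1.57 CPM and 2.73 and 1.65 CPM with it (log2 0.996, SE 0.57, adjusted p = 0.228). In the remaining libraries Mx1 held 3.09 and 3.19 CPM with Lck and p53 ko and 0.751 to 3.61 CPM (median 1.57) with p53 wt. Bst2, the tetherin that holds budding virus at the membrane, went the other way without passing, from 68.7 and 30.7 CPM (Miz1 wt) and 37 and 60.3 CPM (deltaPOZ-Vav) to 17.9 and 47 CPM and 35.7 and 24.9 CPM (log2 -0.65, SE 0.37, adjusted p = 0.231). The log2 differences of Ifit2, Ifit3, Ifi27, Lgals3bp, Mx2, Rtp4, Tor3a and Xaf1 ran from -0.33 for Tor3a to 1.61 for Xaf1. Rtp4, with 0.275 and 9.59 CPM, and Xaf1, with 0.40 and 6.21 CPM, differed widely between the Miz1 wt mice without ICN.

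All 4 IRG GTPases were higher with ICN. Iigp1 (ENSMUSG00000054072, chromosome 18, 60376027 to 60392634) lay at 0.225 and 0.617 CPM (Miz1 wt) and 1.76 and 0.92 CPM (deltaPOZ-Vav) without ICN and at 30.9 and 97.5 CPM and 3.24 and 5.37 CPM with it, 21.8-fold higher (log2 4.44, SE 0.59, adjusted p = 0.000591). The log2 difference of Iigp1 was 7.20 between the Miz1 wt groups (adjusted p = 0.00133) and 1.68 between the deltaPOZ-Vav groups (adjusted p = 0.185, not called), in edgeR contrasts of 2 against 2 mice. Every ICN library exceeded every library without ICN, with 84.8 and 53.5 CPM in Lck p53 ko and 2.1 to 24.5 CPM (median 7.32) in p53 wt libraries. Within the ICN p53 ko leukaemias Iigp1 had the widest log2 range of the 46 genes, and the Vav pair lay far below the Miz1 wt and Lck pairs. Irgm2 rose from 7.71 and 15.2 CPM (Miz1 wt) and 19.96 and 8.42 CPM (deltaPOZ-Vav) to 28 and 95.7 CPM and 36.9 and 39.5 CPM (log2 1.93, SE 0.40, adjusted p = 0.0059), with 73.7 and 51.2 CPM in Lck p53 ko and 25.6 to 49.6 CPM (median 35.1) in p53 wt libraries. Igtp, which encodes Irgm3, rose from 36.7 and 59.96 CPM (Miz1 wt) and 47.3 and 26.4 CPM (deltaPOZ-Vav) to 84.5 and 212 CPM and 91 and 89.7 CPM (log2 1.46, SE 0.30, adjusted p = 0.00602), with 162 and 105 CPM in Lck p53 ko and 52.3 to 107 CPM (median 79.4) in p53 wt libraries. Igtp and Irgm2 are neighbours on the same strand with overlapping exons in the annotation. Irgm1, a regulator of the other IRG proteins and of autophagy, rose from 6.56 and 50.6 CPM (Miz1 wt) and 36.9 and 23.5 CPM (deltaPOZ-Vav) to 84.7 and 159 CPM and 57.5 and 68.5 CPM (log2 1.58, SE 0.48, adjusted p = 0.0365), but lost its call in 8 of 16 fits without 1 library. It held 127 and 85.7 CPM in Lck p53 ko and 41.5 to 76.8 CPM (median 55.9) in p53 wt libraries.

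Of the 5 GBPs, 2 were higher. Gbp2 (ENSMUSG00000028270, chromosome 3, 142620602 to 142638008) lay at 2.25 and 20.3 CPM (Miz1 wt) and 8.4 and 5.04 CPM (deltaPOZ-Vav) without ICN and at 39.3 and 214 CPM and 28.4 and 22.3 CPM with it, 6.5-fold higher (log2 2.70, SE 0.67, adjusted p = 0.0142). Over the fits without 1 library the log2 difference of Gbp2 ran from 1.81 to 3.83, and the call was lost in 2 of 16, without replicate 2 of noICN deltaPOZ-Vav p53-ko (adjusted p = 0.0600) and without replicate 2 of ICN Miz1-wt p53-ko. The Lck p53 ko libraries held 194 and 116 CPM and the p53 wt libraries 13 to 38.5 CPM (median 33), and the highest library without ICN (20.3 CPM) overlapped the lowest p53 wt library. Gbp7 rose from 2.23 and 33.6 CPM (Miz1 wt) and 23.8 and 9.55 CPM (deltaPOZ-Vav) to 76.8 and 182 CPM and 52.4 and 63.9 CPM (log2 2.32, SE 0.63, adjusted p = 0.021), with 168 and 143 CPM in Lck p53 ko and 53.2 to 93.1 CPM (median 65.8) in p53 wt libraries. Gbp4 held 100.3 and 119 CPM (Miz1 wt) and 33.4 and 83.9 CPM (deltaPOZ-Vav) without ICN and 69.8 and 80.6 CPM and 60.3 and 75.6 CPM with it and did not pass (log2 -0.16, SE 0.26, adjusted p = 0.692). Gbp3 (log2 1.34, SE 0.62, adjusted p = 0.141) and Gbp9 (log2 0.53, SE 0.32, adjusted p = 0.259) did not pass either. In Gbp3 the mice without ICN ranged from 1.78 to 38.7 CPM. Gbp4, Gbp8 and Gbp9 share exons in the annotation, and reads that fit several GBP, OAS or Ifit genes are lost from the counts.

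The ICN comparison was also read within each Miz1 genotype, in contrasts chosen after seeing the data. Among Miz1 wt groups alone 17 members were called higher (6.7% of all genes) and among deltaPOZ-Vav groups alone 9 were (4.99%), with 8 genes in both: Cmpk2, Dtx3l, Ifi35, Ifitm3, Irf9, Oas3, Parp14 and Rsad2. Each leaves 2 mice a side. All 28 called members kept their direction in every fit without 1 library, and 16 kept the call in all 16 fits. The other 12 lost it in 14 fits (Ifit1), 8 (Irgm1), 7 (Sp100), 6 (Dhx58 and Ifi44), 5 (Trim30a and Usp18), 3 (Eif2ak2, Gbp7 and Oas1a) or 2 (Gbp2 and Oasl2). The count was 17 without replicate 2 of ICN deltaPOZ-Vav p53-ko (13.6% of all genes called), 18 without replicate 2 of ICN Miz1-wt p53-ko (19.3%) and 35 without replicate 2 of noICN Miz1-wt p53-ko (20.1%). Without replicate 1 of noICN Miz1-wt p53-ko, the lowest library, it was 24 (18.4%). A fit on the 4 groups compared called 16 (14.2%).

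Markers of other cells moved with ICN too. The 9 erythroid markers averaged 7.97 to 10.24 log2 CPM in ICN libraries and -2.0 to 0.74 without ICN, and all 9 were called higher. The 10 neutrophil markers averaged 1.28 to 8.28 with ICN and -3.47 to -2.77 without, again all 10 called, with Ngp, Camp, Ltf, Mpo and Prtn3 at 0 in replicate 1 of noICN Miz1-wt p53-ko. B cell markers averaged -1.23 to 4.62 with ICN against -1.28 to -0.07 (9 of 11 higher), macrophage markers 3.88 to 6.36 against 3.23 to 4.39 (5 of 12 higher), and NK and cytotoxic markers 1.49 to 3.52 against -1.03 to 1.14 (5 of 9 higher, with Tbx21 lower). T cell markers averaged 7.36 to 8.49 against 7.74 to 8.65, with 3 of 11 lower. Medians over libraries were lower with ICN for thymic epithelial (-2.11 against 0.05), plasmacytoid dendritic (1.36 against 1.95) and endothelial and stromal markers (1.26 against 1.82). Among the ICN p53 ko libraries alone the plasmacytoid dendritic median was 2.31. Dendritic markers had a higher median with ICN (1.33 against -0.03). The ranges with and without ICN did not overlap for the erythroid, neutrophil, and NK and cytotoxic markers. They overlapped for all the other lists. The part of any of these cells in the interferon-stimulated genes was not tested. Replicate 2 of ICN Miz1-wt p53-ko had the lowest neutrophil and B cell marker levels of the ICN libraries (1.28 and -1.23) and the highest GTPase level.

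Upstream genes of the pathway were read from a list of 50 with a row in the tables, of which 40 passed the filter. With ICN 18 were higher and 1 lower, against 12.9% higher and 11.1% lower of all genes. Among type I interferons Ifnb1 had 1 count over all 16 libraries, Ifna2 had 8, and Ifna1, Ifna4, Ifna5, Ifnk and Ifne were listed at 0, as were the type III interferons Ifnl2 and Ifnl3. Other interferon alpha genes were not read, and reads that match several genes are dropped from the counts, so a count of 0 does not show that these transcripts were absent. Ifng, interferon gamma, had 2, 5, 0 and 5 counts in the libraries without ICN, and 17, 194, 8 and 12 in the ICN counterparts (log2 3.55, SE 0.88, adjusted p = 0.0142). Of the 6 receptor genes, Il10rb was higher (0.81) and Ifngr1 lower (log2 -1.56, SE 0.45, adjusted p = 0.0288), from 472 and 175 CPM (Miz1 wt) and 731 and 440.1 CPM (deltaPOZ-Vav) to 324 and 79.1 CPM and 109 and 109 CPM. Ifnar1 did not pass (log2 -0.31, SE 0.24).

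Among the kinases of the pathway Jak2 (1.34) and Tyk2 (0.93) were higher. Among 7 inhibitors of signalling, Cish (5.88), Ptpn2 (0.50) and Ptpn6 (1.23) were higher, and Socs1 was not called (log2 -0.54, SE 0.38). Of 15 genes that sense nucleic acids or relay the signal, 6 were higher: Irf5, Myd88, Tbk1, Tlr7, Tlr8 and Tlr9, by 0.74 to 1.71. Of 5 genes tested that edit or clear nucleic acids, 4 were higher, Samhd1 by 3.92, Adar by 0.78, Rnaseh2c by 0.89 and Rnaseh2a by 0.60.

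Interferon-inducible genes outside the 47 were counted the same way, against the same 12.9% and 11.1% of all genes. Of 32 further type I genes 13 were higher and Ly6e was lower (-0.71). Isg20 (5.61), Ifitm1 (4.17) and Phf11b (4.13) had the largest changes. Of 9 further IRG, GBP and very large inducible GTPases, 5 were higher: Gvin1 (5.37), F830016B08Rik (4.73), Gm4951 (3.78), Gbp2b (2.84) and Ifi47 (1.36). Their medians were 1.22 for type I genes and 2.33 for GTPases.

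The promoter letters were about as common in called as in uncalled members. ISRE letters were present in 13 of the 22 windowed members that were higher with ICN and in 6 of the 10 that were not called, and GAS letters in 7 and 3. No letters of either kind were found in the windows of 8 genes that were higher, Irf7, Irf9, Cmpk2 and Dtx3l among them.

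Loss of p53 was examined among the ICN leukaemias (6 against 6 mice, over the 3 Miz1 groups). No member passed the adjusted threshold with edgeR. Of all genes 0.195% did, 0.12% higher and 0.0744% lower in p53 ko. At an unadjusted p under 0.05, 11 members were higher in p53 ko and 0 lower, which is 23.9% against 8.65% of all genes. In total 40 of 46 log2 differences were above 0 (50.5% of all genes), with medians of 0.30 for type I genes and 0.62 for GTPases against 0.00 for all genes. Iigp1 came nearest (log2 1.75, SE 0.43, adjusted p = 0.103), then Bst2 (log2 1.05, SE 0.31, adjusted p = 0.15) and Ifitm3 (log2 1.13, SE 0.34, adjusted p = 0.154). DESeq2, run on the same counts, called these 3, a share of the 46 close to that of all genes (6.73%). With no filter on low counts edgeR called 11 (5.28% of all genes). That unfiltered fit gave implausibly small adjusted p-values, set out below with the dependence on processing. Bst2 held 13.6 to 22.4 CPM (median 16.6) in p53 wt libraries and 17.9 and 47 (Miz1 wt), 61.3 and 28.2 (Lck) and 35.7 and 24.9 CPM (Vav) in p53 ko libraries. For none of the 46 genes did the 6 and 6 libraries separate without overlap, and 0.973% of all genes lay wholly above in p53 ko and 1.63% wholly below. Markers of neutrophils (10 of 10), macrophages (9 of 12) and NK cells (5 of 9, with 1 lower) were higher at an unadjusted p under 0.05 in the same comparison, and their part in it was not tested. The NK and cytotoxic markers averaged 1.49 to 2.43 log2 CPM in p53 wt and 1.59 to 3.52 in p53 ko libraries.

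Lck and Vav leukaemias were compared within ICN deltaPOZ mice (4 against 4 mice, averaged over p53 status). Every one of the 46 differences was above 0, as were 51.2% of all genes, with a median of 0.60 on the log2 scale against 0.01. None of the 17470 genes passed the adjusted threshold with edgeR. At an unadjusted p under 0.05 the 46 genes held 7 that were higher in Lck, 15.2% against 2.15% of all genes. In 6 genes (Dtx3l, Gbp7, Parp14, Sp100, Tor3a and Zbp1) all 4 Lck libraries lay above all 4 Vav libraries, 13.0% against 1.6% of all genes. Earlier results of these data had already shown interferon genes higher in Lck mice, so these counts are no independent evidence of that direction.

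The lowest p-values belonged to Iigp1 (log2 2.14, SE 0.53, unadjusted p = 0.00181), Zbp1 (log2 1.11, SE 0.28, unadjusted p = 0.00222) and Tor3a (log2 0.91, SE 0.25, unadjusted p = 0.00384), all with adjusted p = 1. Zbp1 held 12.4 and 10.9 CPM in Lck p53 wt and 24.3 and 23.7 CPM in Lck p53 ko libraries. The Vav counterparts held 6.3 and 8.09 CPM and 9.64 and 6.95 CPM, all below the Lck values. Tor3a, an ATPase of the endoplasmic reticulum, held 15.4 and 11.2 and 16 and 21.1 CPM in Lck libraries of both p53 genotypes. Its Vav counterparts held 7.89 and 9.79 and 8.37 and 7.35 CPM, again without overlap.

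Within p53 wt mice 42 of 46 differences between Lck and Vav were above 0 (46.5% of all genes) and within p53 ko mice 43 (51.7%), with medians of 0.49 and 0.55. All Lck libraries lay above all Vav libraries for 30 members in p53 wt mice (16.1% of all genes) and for 28 in p53 ko mice (21.2%). At an unadjusted p under 0.05 the numbers were 1 (0.927% of all genes) and 7 (4.22%). In p53 wt mice Ddx58 (log2 0.87, SE 0.37), Gbp9 (log2 0.97, SE 0.46) and Zbp1 (log2 0.69, SE 0.40) had the lowest p-values. In p53 ko mice these were Iigp1 (log2 4.01, SE 0.81), Zbp1 (log2 1.53, SE 0.40) and Ifitm3 (log2 2.21, SE 0.61), with adjusted p from 0.58 to 0.708. For the difference between both p53 backgrounds Iigp1 (log2 3.73, SE 1.05, adjusted p = 0.961), Ifitm3 (log2 2.07, SE 0.83) and Gbp2 (log2 2.52, SE 1.27) had the lowest p-values, and none of the 46 was called with edgeR or DESeq2, while edgeR with no filter on low counts called Iigp1 and Gbp2 (1.24% of all genes). At an unadjusted p under 0.05, 2 of the 46 were higher (2.79% of all genes), and 22 were above 0 (52%). DESeq2 called Iigp1 in the averaged comparison (0.0859% of all genes) and Iigp1, Zbp1 and Ifitm3 in p53 ko mice (0.794%). With no filter on low counts edgeR called 5 members in the averaged comparison (0.92% of all genes) and 6 in p53 ko mice (1.58%).

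**Figure D4:**
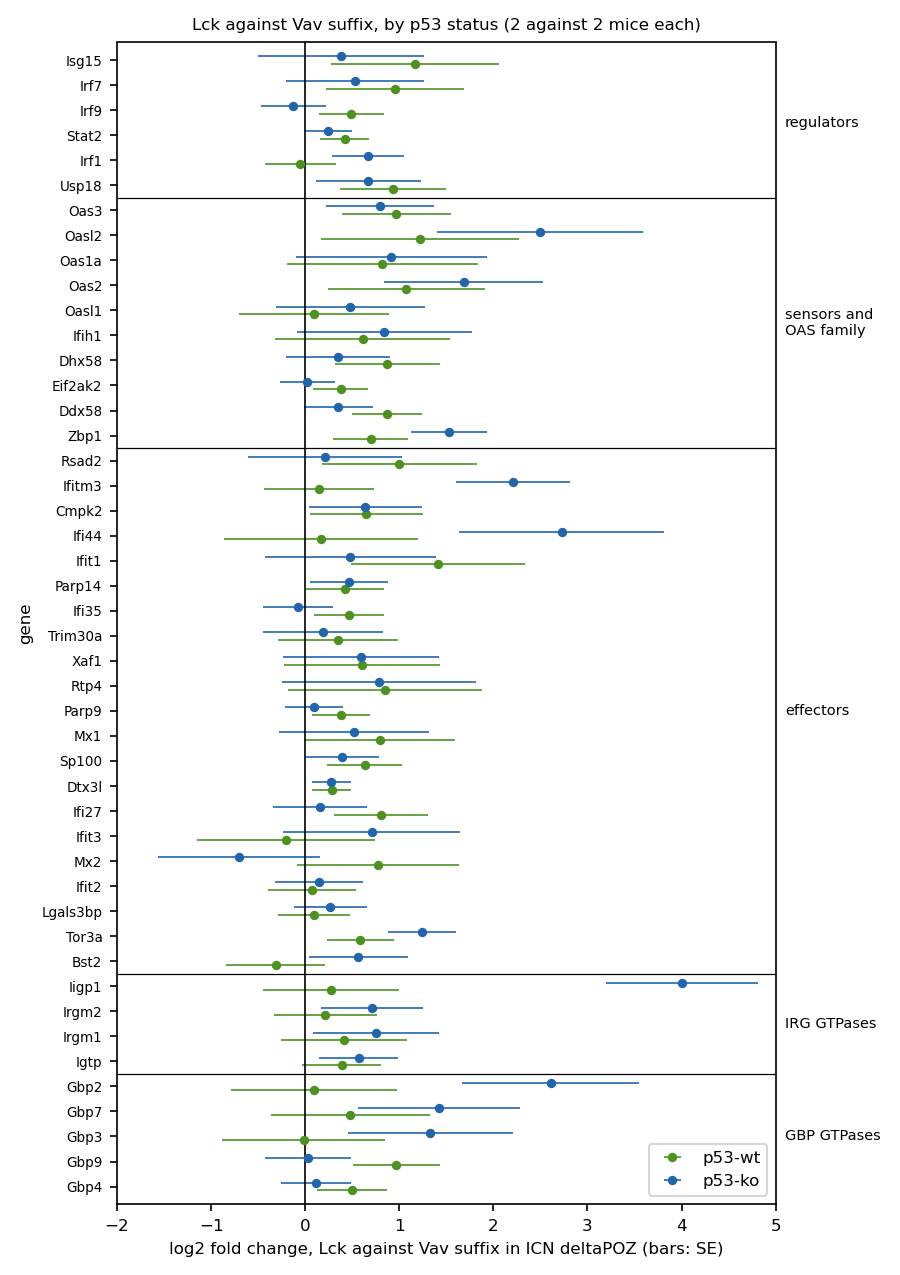
Log2 fold change between Lck and Vav ICN deltaPOZ leukaemias (x axis, bars are standard errors) for 46 genes (y axis, by role), in p53 wt (green) and p53 ko mice (blue), 2 against 2 mice each. Green points lie above 0 for 42 genes and blue points for 43, and the blue points of Iigp1 (4.01), Ifi44 (2.73) and Gbp2 (2.61) lie farthest to the right.

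Markers of other cells also differed between the same p53 ko groups, though no gene passed the adjusted threshold there with edgeR. In Lck against Vav p53 ko mice, 11 of 12 macrophage markers and 4 of 9 NK and cytotoxic markers were higher at an unadjusted p under 0.05 (4.22% of all genes). All 10 neutrophil markers lay above 0 (51.7% of all genes) and were higher in each Lck than in each Vav library (21.2%). In p53 wt mice 0 of 12 macrophage and 0 of 9 NK markers passed that level (0.927% of all genes were higher). All 12 macrophage differences were below 0 there, while 46.5% of all genes lay above 0. The part of these cells in the differences was not tested.

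Against Miz1 wt mice, deltaPOZ leukaemias were read by suffix, and both readings use the same Miz1 wt mice. With the Vav suffix 40 of 46 differences were below 0 and 6 above (49.2% of all genes above), with a median of -0.34. With the Lck suffix 35 were above 0 (50.8%), with a median of 0.23. No member passed the adjusted threshold with edgeR in either (0% of all genes were called in both). At an unadjusted p under 0.05, 5 members were lower in Vav (10.9% against 2.59% of all genes) and 0 members differed in Lck (1.91% of all genes were higher). B cell markers were higher in both (9 of 11 at that level), and 2 of 9 NK and cytotoxic markers were lower in Vav. The share of all genes higher in Vav at that level is not given. The part of B cells and NK cells in the differences was not tested. In the Vav reading Iigp1 (log2 -2.88, SE 0.54, adjusted p = 0.356), Zbp1 (log2 -0.90, SE 0.28) and Igtp (log2 -0.72, SE 0.30) had the lowest p-values, and DESeq2 called Iigp1 there (0.498% of all genes) and no member in the Lck reading. With no filter on low counts edgeR called Iigp1, Gbp2 and Oasl2 in the Vav reading (1.52% of all genes). In the Lck reading these were Ifitm3 (log2 0.72, SE 0.41), Tor3a (log2 0.37, SE 0.25) and Dhx58 (log2 0.58, SE 0.39).

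The question of the series, deltaPOZ against Miz1 wt, gave no called member with edgeR or DESeq2. With no filter on low counts edgeR called 2 in the average of 3 backgrounds (1.67% of all genes), Gbp9 (log2 -0.60, adjusted p = 0.0429) and Gbp2 (log2 -0.78, adjusted p = 0.00171). Averaged over ICN p53 wt, ICN p53 ko and p53 ko without ICN (10 against 6 mice), 23 of 46 differences were above 0 (49.9% of all genes) and 23 below, where 0.0172% of all genes were called. At an unadjusted p under 0.05, 3 members were lower (1.97% of all genes) and 0 higher. Dtx3l (log2 -0.33, SE 0.11, adjusted p = 0.845), Gbp4 (log2 -0.48, SE 0.20) and Gbp9 (log2 -0.59, SE 0.24) were those 3. At the same level 8 of 11 B cell markers were higher, and the share of all genes higher is not given. Gbp4 held 100.3 and 119 CPM in Miz1 wt and 33.4 and 83.9 CPM in deltaPOZ-Vav mice without ICN, and 33.5 to 83.9 CPM (median 67.6) over the 12 ICN libraries. Gbp9 held 103 and 47.5 CPM in the Miz1 wt mice with ICN and p53 wt, against 24.7 and 40.9 CPM in their Vav counterparts.

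By background, the numbers of members called with edgeR or DESeq2 were again 0 with the filter on low counts, where edgeR called 0% of all genes in ICN p53 wt mice and without ICN and 0.00572% in ICN p53 ko mice. With no filter edgeR called Iigp1 in ICN p53 wt mice (0.701% of all genes), Iigp1 and Gbp2 in ICN p53 ko mice (1.54%) and Iigp1 and Gbp3 without ICN (2.48%). Differences above 0 numbered 10 in ICN p53 wt mice (50.2% of all genes), 21 in ICN p53 ko mice (49.3%) and 29 without ICN (50.4%). In ICN p53 wt mice 1 member was lower at an unadjusted p under 0.05 (1.28% of all genes), Iigp1 (log2 -1.73, SE 0.60), ahead of Gbp9 (log2 -0.71, SE 0.39) and Igtp (log2 -0.53, SE 0.36). In ICN p53 ko mice it was again Iigp1 alone (log2 -1.90, SE 0.59, 2.19% of all genes), ahead of Dtx3l (log2 -0.27, SE 0.18) and Gbp2 (log2 -1.02, SE 0.74). The Gbp2 difference rested on 1 mouse and was 0.71 without replicate 2 of ICN Miz1-wt p53-ko. Without ICN, Dtx3l (log2 -0.58, SE 0.21) and Gbp4 (log2 -0.90, SE 0.38) were lower at that level (3.05% of all genes), and Gbp3 (log2 1.92, SE 0.90) followed without reaching it. Gbp3 held 1.78 and 9.54 CPM (Miz1 wt) and 38.7 and 4.34 CPM (deltaPOZ-Vav) there, and its difference was -0.40 without replicate 1 of noICN deltaPOZ-Vav p53-ko.

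Iigp1, Gbp2 and Ifng, chosen after their values were seen, can be read side by side in the 6 ICN p53 ko libraries. Iigp1 held 30.9 and 97.5 CPM with Miz1 wt, 84.8 and 53.5 CPM with Lck and 3.24 and 5.37 CPM with Vav. Gbp2 held 39.3 and 214, 194 and 116 and 28.4 and 22.3 CPM in the same order. Ifng held 0.475 and 3.85, 1.98 and 2.32 and 0.146 and 0.251 CPM, from 17, 194, 88, 115, 8 and 12 counts. In all 3 genes replicate 2 of Miz1 wt was the highest, both Lck libraries came next and both Vav libraries were the lowest. NK and cytotoxic markers averaged 2.40 and 3.52, 3.31 and 3.36, and 1.89 and 1.59 log2 CPM there, again with replicate 2 of Miz1 wt and the Lck pair on top. Not every gene of these lists had that order: Gbp4 held 69.8 and 80.6, 62.8 and 83.9 and 60.3 and 75.6 CPM, and Gbp9 65 and 49, 43.4 and 57.6 and 50.6 and 48.3 CPM. The NK marker Klrb1c was highest in replicate 1 of Vav (3799 counts, against 269 to 909 in the other 5). In p53 wt ICN libraries, Ifng held 0.427 and 0.934 CPM (Miz1 wt), 0.276 and 0.293 (Lck) and 0.038 and 0.239 (Vav), while Gbp2 held 13 to 38.5 CPM (median 33). The part of NK cells or of interferon gamma in the Iigp1 and Gbp2 levels was not tested.

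**Figure D5:**
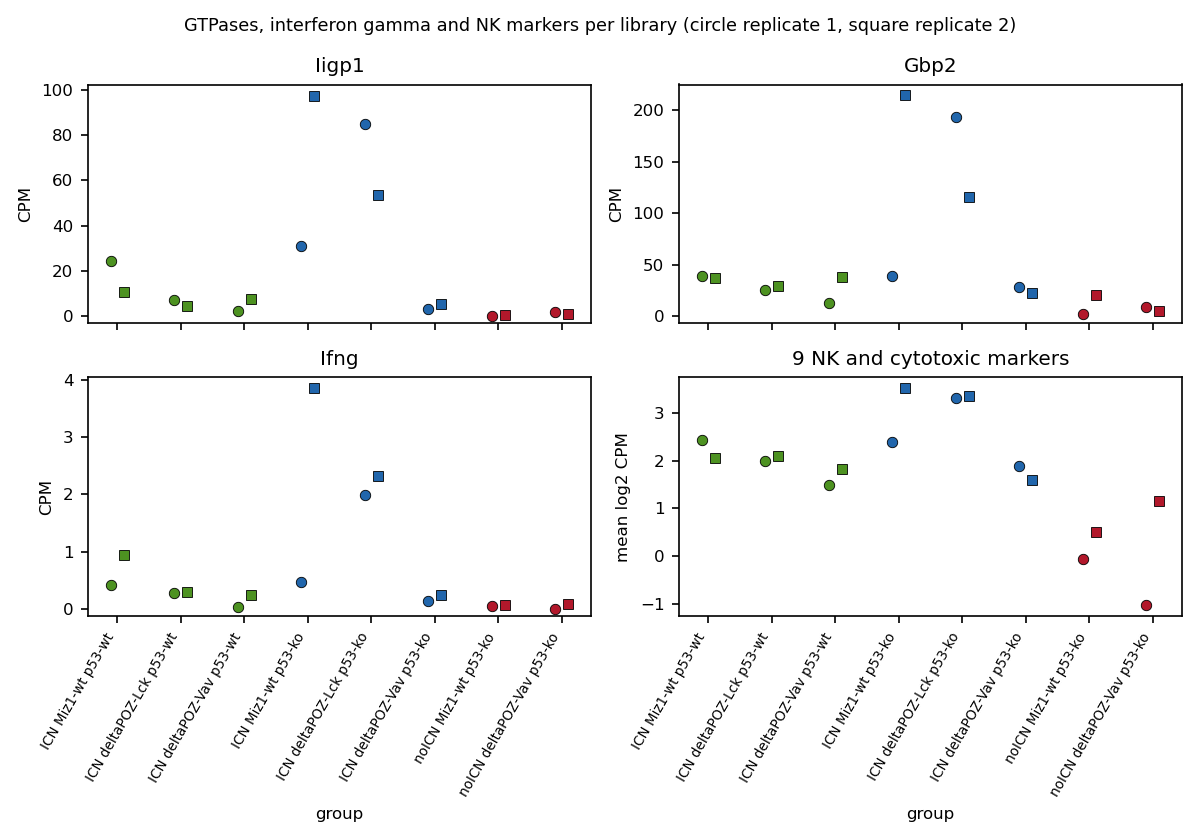
Iigp1, Gbp2 and Ifng (CPM) and the mean of 9 NK and cytotoxic markers (log2 CPM) in each library by group; green is ICN p53 wt, blue ICN p53 ko, red p53 ko without ICN, circles replicate 1 and squares replicate 2. In each panel the 3 highest points are replicate 2 of ICN Miz1-wt p53-ko and both ICN deltaPOZ-Lck p53-ko libraries, with Ifng at 3.85, 1.98 and 2.32 CPM there.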

How the data were processed

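Total RNA from T-ALL samples of 16 mice was sequenced after a TruSeq Stranded mRNA preparation, per the labels. The authors deposited raw counts per Ensembl gene, 1 table per mouse. Tools named in the submitters' processing notes are TopHat2 2.0.10, HTSeq, SAMtools and DESeq, with mm10 or GRCm38 as build. No source used here gives the annotation release or the strand setting. Rows that name no gene were left out: by library, 45.8% to 63.7% were alignments that were not unique, 14.2% to 21.5% fell outside genes and 0.138% to 0.331% were ambiguous, so genes of near-identical families are undercounted.

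Symbols and positions came from GENCODE M21 (GRCm38), promoters from RefSeq (GRCm38.p6). Counts were fitted with edgeR 4.0.16 in R 4.3.3: TMM scaling (factors 0.952 to 1.05), filterByExpr, quasi-likelihood F tests in 1 model of the 8 groups (residual degrees of freedom 8) and Benjamini-Hochberg adjustment over 17470 genes, threshold 0.05. Standard errors were derived from F as the absolute log2 fold change over its square root. TMM-normalised CPM gives levels, and log2 CPM uses a prior count of 2. Replicate numbers follow accession order and name a mouse only. Groups hold 2 mice, so each mouse's value is given in place of a mean and SD. DESeq2 1.42.0, other size factors, no filter, fewer groups and leaving out each library were alternatives. The edgeR fit of the ICN comparison was also run on simulated counts in which genes vary independently of each other. Lists that shift together between mice are not covered by that run, and its outcome is not used here.

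Named genes were all members with an adjusted p under 0.05 in a contrast, the 3 with the lowest p in each contrast and textbook representatives of each role; Irf1, Ifih1, Rtp4, Xaf1 and Klrb1c were singled out after their values were seen. The members and gene lists were chosen with earlier results of these data known. Medians and counts over the list describe it and carry no test. The values of 1 upstream gene are not reported here.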

Additional observations from a re-analysis of the deposited data

Results flagged for a closer look

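The observed Iigp1 difference between deltaPOZ and Miz1 wt mice had opposite signs in 2 backgrounds. Iigp1 was picked from the list after its values were seen, because its libraries separated in opposite directions. The share of all genes whose libraries separate in this way is not given, so the separation cannot be weighed against it. In ICN p53 wt leukaemias all 4 deltaPOZ libraries (7.10, 4.58, 2.10 and 7.54 CPM) lay below both Miz1 wt libraries (24.5 and 10.8 CPM), a log2 fold change of -1.73 (SE 0.60, adjusted p = 1.0). In p53 ko leukaemias without ICN both deltaPOZ-Vav libraries (1.76 and 0.920 CPM, 77 and 53 counts) lay above both Miz1 wt libraries (0.225 and 0.617 CPM, 9 and 43 counts), a log2 fold change of 1.62 (SE 0.79, adjusted p = 0.672). The difference between these backgrounds was not tested, and neither change passed the threshold in edgeR's quasi-likelihood test on the filtered genes. With no filter on low counts both passed (adjusted p = 0.00071 in ICN p53 wt and 0.041 without ICN). The unfiltered fit gave implausibly small adjusted p-values elsewhere, as set out below, so these calls carry little weight.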

How the results depend on the processing

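The ICN comparison had 28 called members, as in the reported fit, with DESeq2 size factors. It had 31 with DESeq2, 33 with no filter on low counts and 31 with the Lck group included. The share of all genes called in these alternatives is not given, so the larger counts cannot be weighed against it. In the joint test that share was higher with DESeq2 and with no filter than in the reported fit. The ICN comparison had 16 when fitted on its own 4 groups alone. It had 17 between the Miz1 wt groups and 9 between the deltaPOZ-Vav groups. Those contrasts, of 2 against 2 mice, were added after seeing the data. Leaving out 1 library gave 17 to 35 called members there, 8 to 25 in the joint test, 0 to 1 for deltaPOZ against Miz1 wt without ICN (1 without replicate 2 of noICN Miz1-wt p53-ko) and 0 in each other comparison. The joint count was 28 with DESeq2 and 35 with no filter. Where edgeR called 0 members, DESeq2 called 1 in Lck against Vav (averaged), 3 in its p53 ko part, 1 in deltaPOZ-Vav against Miz1 wt and 3 in p53 ko against p53 wt. With no filter these counts were 5, 6, 3 and 11, with 2 for the difference between p53 backgrounds and 1, 2, 2 and 2 for deltaPOZ against Miz1 wt in ICN p53 wt, in ICN p53 ko, without ICN and averaged. The cause was not tested. In the ICN comparison the edgeR adjusted p of Rsad2 was 4.67e-99 with no filter and 0.000434 with it. That of Oas3 was 2.24e-56 against 0.000111. Values this small are implausible with 2 mice a group, so calls made only without the filter carry little weight. Gbp3 (deltaPOZ against Miz1 wt without ICN) turned from 1.92 to -0.40 without replicate 1 of noICN deltaPOZ-Vav p53-ko, within -0.40 to 3.58 over the fits without 1 library, and Gbp2 in ICN p53 ko mice from -1.02 to 0.71 without replicate 2 of ICN Miz1-wt p53-ko (range -1.78 to 0.71). No paired analysis was possible because the replicate numbers follow accession order and the labels carry none. With 2 mice a group, a difference that missed the threshold is not shown to be absent.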

Other observations

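In some groups most of the list differed between the 2 mice in the same direction, and in others it was split. In noICN Miz1-wt p53-ko, 44 of 46 genes were higher in replicate 2 (8792 of all 17470 genes). The median log2 difference (replicate 1 minus replicate 2) was -1.45, against 0 for all genes. In ICN Miz1-wt p53-ko 40 of 46 were higher in replicate 2 (8680 of all genes), with a median of -0.81 against 0. In ICN deltaPOZ-Lck p53-wt 39 of 46 were higher in replicate 1 (8265 of all genes), but only 5 of the 9 GTPases were. In ICN deltaPOZ-Vav p53-wt all 9 GTPases were higher in replicate 2, while 21 of the 37 type I genes were higher in replicate 1. In ICN deltaPOZ-Vav p53-ko the genes were split, 24 higher in replicate 1 and 22 in replicate 2. They were also split in noICN deltaPOZ-Vav p53-ko, 21 and 25.

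Per kilobase of exon, a scale that allows genes to be compared, Rsad2 was the most abundant member in each of the 6 ICN groups, with group means of 71.5 to 142.9 RPKM, and Isg15 came next in each with 39.98 to 89.96 RPKM. Without ICN, Bst2 led both groups with 55.1 and 53.9 RPKM, followed by Lgals3bp with 34.8 and 37.4 RPKM and Irf1 with 34.7 and 31.9 RPKM. These 3 genes were not called in the ICN comparison.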
